A study of Mus musculus with 18 samples.

Results

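The genes described here are 34 members of the NRF2 and antioxidant programme, taken by gene name from the deposited table of 56748 genes. All 34 passed the low-count filter in every comparison. The data are poly(A)-selected RNA sequencing of macrophages grown from mouse bone marrow with medium conditioned by L929 cells, a fibroblast line that secretes the macrophage growth factor M-CSF. On day 7 the cells were moved to serum-free IMDM and exposed for 24 h. The 6 groups, with 3 libraries each, were C57BL/6J TLR4-knockout macrophages given GM (GlcNAc-MurNAc), TLR4-knockout macrophages given MDP (written MurNAc-D-Ala-L-Gln in the labels), wild-type C57BL/6J macrophages given GM, wild-type macrophages given MDP, TLR4-knockout macrophages given water and wild-type macrophages given water. The knockout allele and the doses are not given in the sources used here, so GM and MDP were not compared with each other. The labels call the 3 libraries of a group biological replicates but do not say that they came from separate animals, and the p-values cover only the spread among these libraries, which may be technical. By the series title the study asked whether GM acts through TLR4, the receptor for lipopolysaccharide. In the knockout groups each treatment was compared with water in cells lacking that receptor.

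NRF2, encoded by Nfe2l2, is a transcription factor that KEAP1 holds in the cytoplasm and marks for degradation. When electrophiles or oxidants modify KEAP1, NRF2 accumulates, pairs with a small MAF protein and binds antioxidant response elements, while BACH1 competes for these elements as a repressor. Its targets supply glutathione and NADPH, run the thioredoxin and peroxiredoxin cycle, degrade heme and reduce quinones. In macrophages NRF2 activity is known to limit oxidative damage and to restrain inflammatory gene expression. NRF2 is controlled mainly at the level of the protein, which RNA sequencing does not measure.

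The core of the antioxidant response element, TGACNNNGC, was searched on both strands of the 300 bases from 250 before to 50 after each RefSeq gene start (build GRCm38.p6). A window was present for 29 of the 34 members. The core lay in 10 of these 29 (34.5%), against 14% of 27025 genes, where a gene with several starts counted if any window held it. The looser TGANNNNGC lay in 17 of 29 (58.6%), against 45% of all genes. The stretches below come from members on which the results turn, read 5′ to 3′ on the strand of the gene, with the match in capitals. Where the core reads on the opposite strand, the capitals show its reverse complement.
Gclm, chr3:122245393-122245461, plus strand: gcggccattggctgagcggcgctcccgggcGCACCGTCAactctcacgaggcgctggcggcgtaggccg
Txnrd1, chr10:82859084-82859152, plus strand: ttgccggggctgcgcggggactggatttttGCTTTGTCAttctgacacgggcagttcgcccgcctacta
Prdx1, chr4:116685436-116685504, plus strand: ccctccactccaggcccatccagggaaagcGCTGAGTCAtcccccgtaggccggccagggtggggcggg
Mafg, chr11:120633731-120633797, minus strand: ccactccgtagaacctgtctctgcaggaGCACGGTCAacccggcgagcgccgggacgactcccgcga
Nfe2l2, chr2:75704865-75704913, minus strand: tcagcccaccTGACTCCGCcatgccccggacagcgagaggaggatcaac
G6pdx, chrX:74428899-74428967, minus strand: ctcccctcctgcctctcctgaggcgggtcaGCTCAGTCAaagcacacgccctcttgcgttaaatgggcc
Gclm, Txnrd1, Prdx1 and Mafg are targets or partners of NRF2 whose transcripts rose with GM in the knockout. Nfe2l2 and G6pdx carry the same core in the window but did not pass the test there, although each GM library of G6pdx lay above each water library. Other members rose there with no core in their windows, among them Nqo1, Slc7a11 and Blvrb. The match lies at -134 to -126 from the start of Gclm and at -92 to -84 from 1 of the starts of Txnrd1, whose other windows held no core. The stretch from Nfe2l2, whose product binds such elements, holds its match at -240 to -232. In Prdx1 the core overlaps TGAGTCA, the AP-1 element, which lay in 4 of 29 members (13.8%) and in 5.95% of all genes. The remaining cores were in Srxn1, Pgd, Me1 and Sod1. These matches describe letters in a window and were not tested as binding sites.

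Libraries held 15532973 to 21128507 counts, and mitochondrial genes took 2.96 to 3.79% of them. Macrophage markers summed to 24474 to 32792 CPM (counts scaled to library size) in every library, while 4 B and T cell markers summed to at most 2.23 CPM and 4 erythroid markers to at most 0.31 CPM. Of the 8 macrophage markers, 3 were higher and 1 lower in knockout than in wild-type water, beside 6.98% and 8.8% of all genes. In the knockout 2 rose and 2 fell with MDP (10.4% and 10.5% of genes), and 2 rose and 0 fell with GM (4.15% and 4.46%). In wild type 0 passed with GM or MDP. Tlr4 itself was at 36.5 to 52.9 CPM in knockout libraries and at 117 to 229.5 CPM in wild-type libraries. Transcript therefore remained in the knockout, and which exons were deleted is not given in the sources used here. The wild-type libraries did not form tight groups. Wild-type water replicate 3 was the highest of its group for 29 of 34 members, against 44.2% of all genes, and 23 members spanned at least 2-fold in that group with the highest value in this library, against 10.2% of genes. In wild-type GM, 17 members spanned at least 2-fold, against 25.2% of genes. The highest value was in replicate 3 for 12, against 10.7% of genes, and in replicate 1 for 5, against 3.83%. No member spanned 2-fold in wild-type MDP or in any knockout group, against 10.6 to 11.8% of genes.

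The same libraries stood apart in other genes. The 6 proliferation markers summed to 119, 208 and 89.6 CPM in wild-type GM and to 251, 214 and 75.0 CPM in wild-type water, where the library high in antioxidant genes was the low one. The 10 stromal markers summed to 51.9, 95.3 and 52.2 CPM in wild-type GM and to 276, 241 and 51.5 CPM in wild-type water, again lowest in water replicate 3. The part of these differences in the results below was not tested. In bulk RNA, fewer cells of a type and less RNA per cell cannot be told apart. Counts of members called in comparisons that use wild-type water are given with and without its replicate 3, as are the fold changes of members named for a call that rests on leaving it out. That library was singled out after its values in these same genes were seen. Without it only water replicates 1 and 2 remain, and they lie close together for most members. Adjusted p-values without replicate 3 rest on the smaller spread that this choice left.

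**Figure D1:**
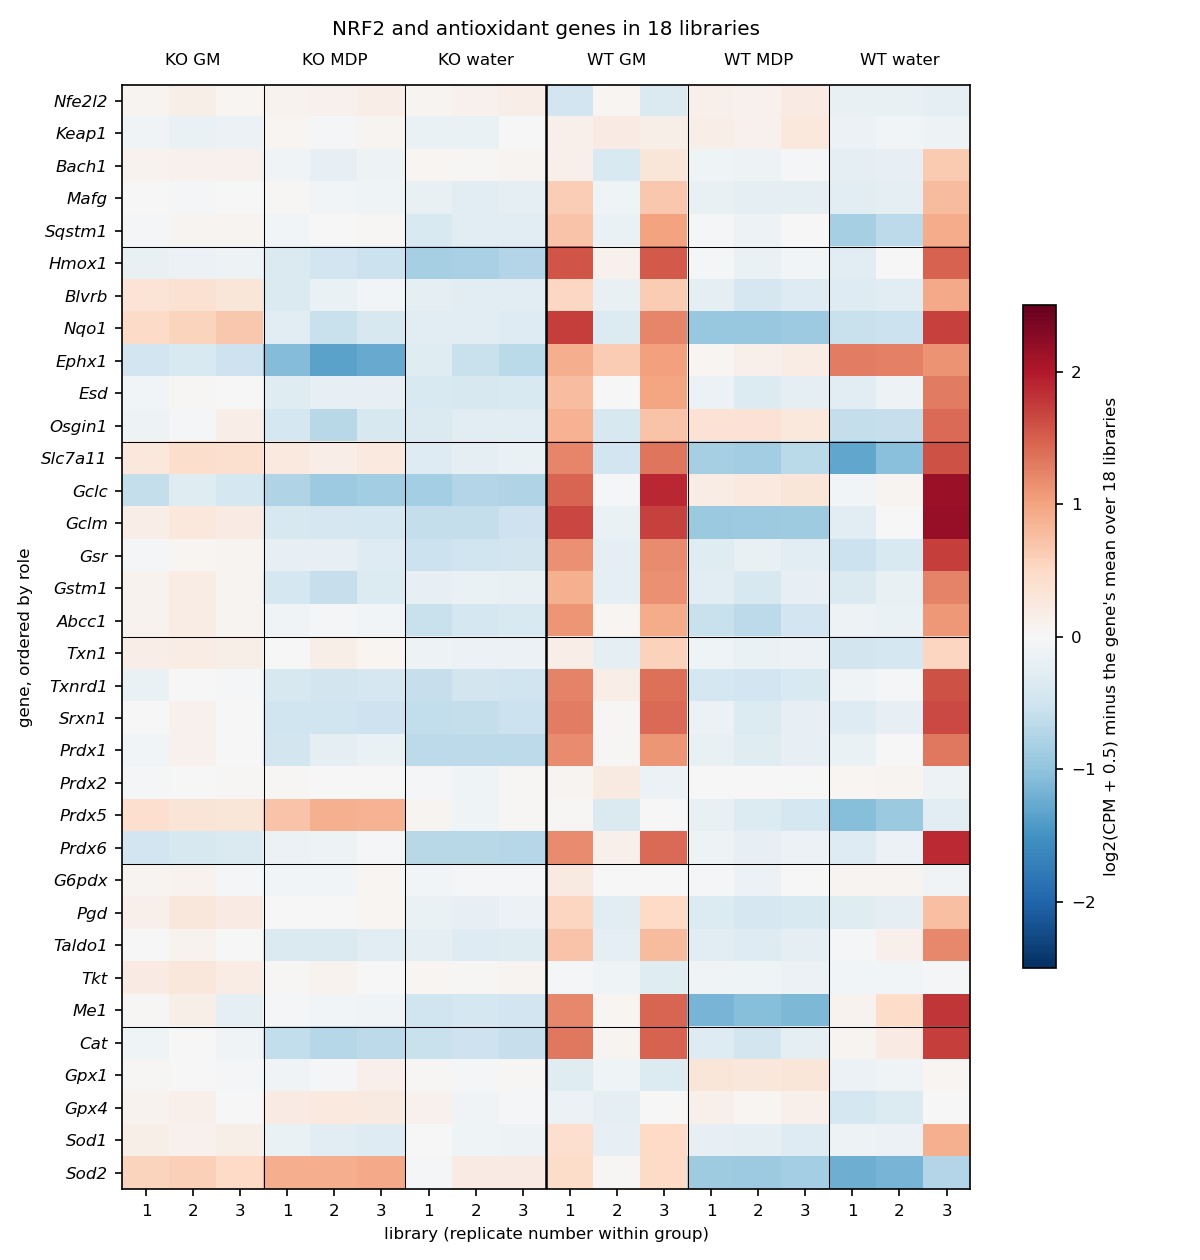
Level of each of the 34 genes in each of the 18 libraries as log2(CPM + 0.5) minus the mean of the gene over all libraries; columns are libraries, rows are genes by role. Wild-type GM replicates 1 and 3 and wild-type water replicate 3 are high in most rows, while the 3 knockout GM libraries sit above the 3 knockout water libraries in 28 of 34 genes.

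**Figure D2:**
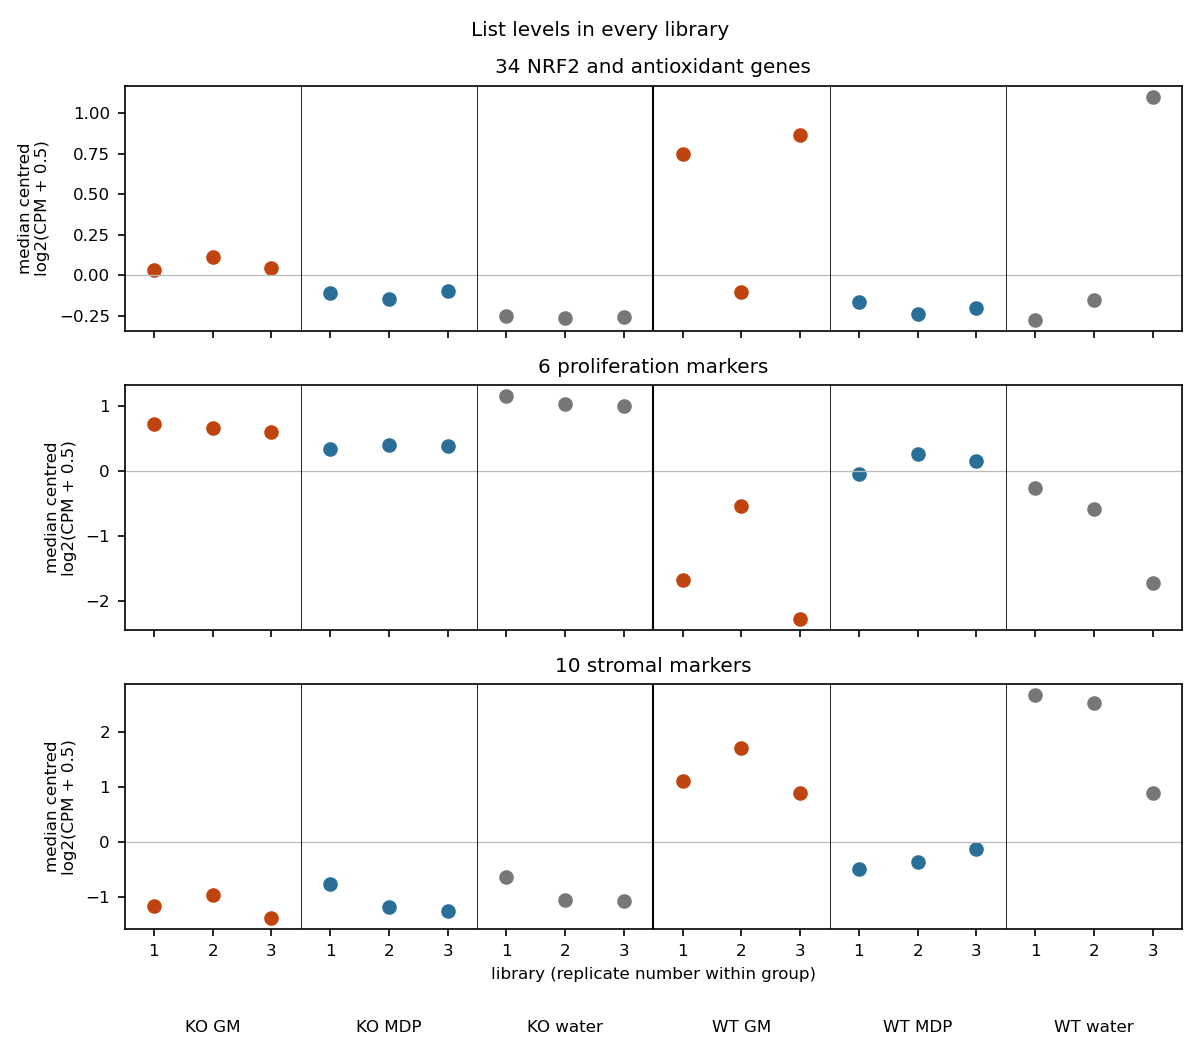
Median over each list of log2(CPM + 0.5) centred on each gene's mean, for the 34 antioxidant genes, 6 proliferation markers and 10 stromal markers, with 1 point per library. The antioxidant median was 1.10 in wild-type water replicate 3 and -0.28 and -0.16 in the other water libraries; the proliferation and stromal medians of that library were the lowest of its group.

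GM raised most of the programme in macrophages lacking TLR4. Of the 34 genes, 26 were higher with GM than with water in the knockout and 0 were lower, by edgeR's quasi-likelihood test with Benjamini-Hochberg adjustment over 14139 genes. Over all genes, 4.15% were higher and 4.46% lower. The median log2 fold change was 0.34 over the 34 genes and 0.00 over all genes, so the changes were small, between 0.18 (Tkt) and 0.87 (Nqo1) among those that passed. For 28 members the 3 GM libraries all lay above the 3 water libraries, against 11.6% of all genes, and for 0 they all lay below, against 12.9%. Within the knockout groups the median coefficient of variation over members was 3.88% with GM and 3.04% with water.

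Heme and quinone enzymes held the largest change. Nqo1, which reduces quinones (GRCm39 chromosome 8, 108114857 to 108129838, minus strand), had 45.9, 48.4 and 52.6 CPM with GM and 27.4, 26.8 and 26.1 CPM with water in the knockout. Every GM library was above every water library, by a log2 fold change of 0.87 ± 0.07 (SE; adjusted p = 4.45e-11). Hmox1, the heme oxygenase that degrades heme to biliverdin, had 589.8, 607 and 611 CPM with GM and 375, 382 and 403 CPM with water, a log2 fold change of 0.64 ± 0.04 (adjusted p = 1.01e-13). Blvrb, a biliverdin reductase, had 209, 214 and 203 CPM with GM against 139, 138 and 136 CPM with water (0.60 ± 0.04, adjusted p = 1.39e-12). Both heme enzymes thus separated the groups without overlap. Esd, an esterase that hydrolyses S-formylglutathione, rose by 0.38. Osgin1, a growth inhibitor induced by oxidative stress, had 14.7, 15.6 and 18.1 CPM against 12.3, 13.1 and 13.4 CPM, just past the threshold (adjusted p = 0.0498). Ephx1, a microsomal epoxide hydrolase, had 36.0, 38.5 and 35.0 CPM with GM and 40.5, 34.1 and 31.2 CPM with water, with overlapping groups (adjusted p = 0.794).

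All 6 genes of glutathione supply and export rose with GM in the knockout. Gclm (GRCm39 chromosome 3, 122039206 to 122064381, plus strand) encodes the modifier subunit of glutamate-cysteine ligase, the rate-limiting enzyme of glutathione synthesis. It had 195, 209.8 and 199.5 CPM with GM and 115, 114 and 121 CPM with water (log2 fold change 0.79 ± 0.04, adjusted p = 5.32e-15). The catalytic subunit Gclc had 32.9, 40.6 and 36.8 CPM with GM and 27.8, 30.1 and 29.7 CPM with water, a smaller change of 0.34 ± 0.08 (adjusted p = 0.00293). Slc7a11, the cystine importer, had 697, 784 and 764 CPM with GM and 462, 496 and 517 CPM with water (0.61 ± 0.05, adjusted p = 1.13e-10). In each of these 3 genes the groups did not overlap. Abcc1, which exports glutathione conjugates, had 223, 239 and 219 CPM against 141, 153 and 160.1 CPM (0.59 ± 0.05, adjusted p = 4.58e-11). Gsr, which regenerates reduced glutathione, had 134, 143 and 144 CPM against 95.3, 97.5 and 100.3 CPM (0.52 ± 0.05, adjusted p = 2.71e-10). Gstm1, a glutathione transferase, rose by 0.30; it belongs to a family of near-identical genes among which counting may split reads.

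In the thioredoxin and peroxiredoxin cycle 6 of 7 genes rose. Prdx1, a peroxiredoxin that reduces hydrogen peroxide, was the most abundant member per kilobase of transcript (776 CPM per kilobase in knockout water). It had 3561, 4019 and 3681 CPM with GM and 2366, 2350.1 and 2369.5 CPM with water (log2 fold change 0.67 ± 0.04, adjusted p = 1.23e-13). Srxn1, the sulfiredoxin that reactivates overoxidised peroxiredoxins, had 239.6, 261 and 239.97 CPM with GM and 158, 160.3 and 167 CPM with water (0.62 ± 0.04, adjusted p = 1.85e-12). Txnrd1, which passes electrons from NADPH to thioredoxin, had 339, 384 and 376 CPM with GM and 255, 279 and 271 CPM with water (0.45 ± 0.05, adjusted p = 1.86e-08). The groups were separate in all 3. Thioredoxin itself, Txn1, rose by 0.31, the mitochondrial and peroxisomal Prdx5 by 0.35 and the 1-Cys peroxiredoxin Prdx6 by 0.28. Prdx2 had a log2 fold change of 0.03 with a 95% interval of -0.06 to 0.12; its span overlaps Junb on the other strand, whose counts were 105% of its own, and use of strand in counting is not given in the sources used here.

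Among the 5 genes of NADPH supply, the pentose phosphate enzymes Pgd, Taldo1 and Tkt rose by 0.39, 0.32 and 0.18 on the log2 scale. Me1, malic enzyme, was the least abundant member per kilobase and had 9.40, 10.2 and 7.62 CPM with GM against 6.32, 6.62 and 6.40 CPM with water (0.49 ± 0.14, adjusted p = 0.0248). G6pdx, the first enzyme of that pathway, had 243, 246 and 228 CPM with GM and 222, 223 and 227 CPM with water, 0.10 ± 0.04 on the log2 scale (adjusted p = 0.157). Of the 5 genes that detoxify peroxide and superoxide, catalase rose most: Cat had 344, 367 and 345 CPM with GM and 249, 256 and 246 CPM with water (0.50 ± 0.04, adjusted p = 1.08e-10). Sod2, the mitochondrial superoxide dismutase, rose by 0.43 and the cytosolic Sod1 by 0.22. The glutathione peroxidases did not pass: the 95% interval of the log2 fold change ran from -0.08 to 0.08 for Gpx1, and Gpx4 was at 0.09 (adjusted p = 0.242).

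Of the 5 regulators 2 rose. Nfe2l2 (GRCm39 chromosome 2, 75505857 to 75534985, minus strand) had 391, 414 and 388 CPM with GM and 393, 399 and 419.5 CPM with water in the knockout, and the 95% interval of its log2 fold change ran from -0.10 to 0.06. Keap1 had 60.4, 56.8 and 58.2 CPM with GM and 56.9, 57.0 and 63.5 CPM with water, an interval of -0.13 to 0.11. For Bach1 the values were 142, 144 and 143 CPM with GM and 139, 135 and 140.03 CPM with water (0.06 ± 0.04, adjusted p = 0.489). None of these 3 passed the test. Mafg, a small MAF partner of NRF2, had 109.8, 106 and 108 CPM with GM against 95.5, 90.9 and 93.3 CPM with water (0.22 ± 0.05, adjusted p = 0.00143). Sqstm1, the p62 autophagy receptor that binds KEAP1, had 804, 870.05 and 868 CPM with GM against 640.3, 687 and 689.9 CPM with water (0.34 ± 0.04, adjusted p = 5.08e-07).

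**Figure D3:**
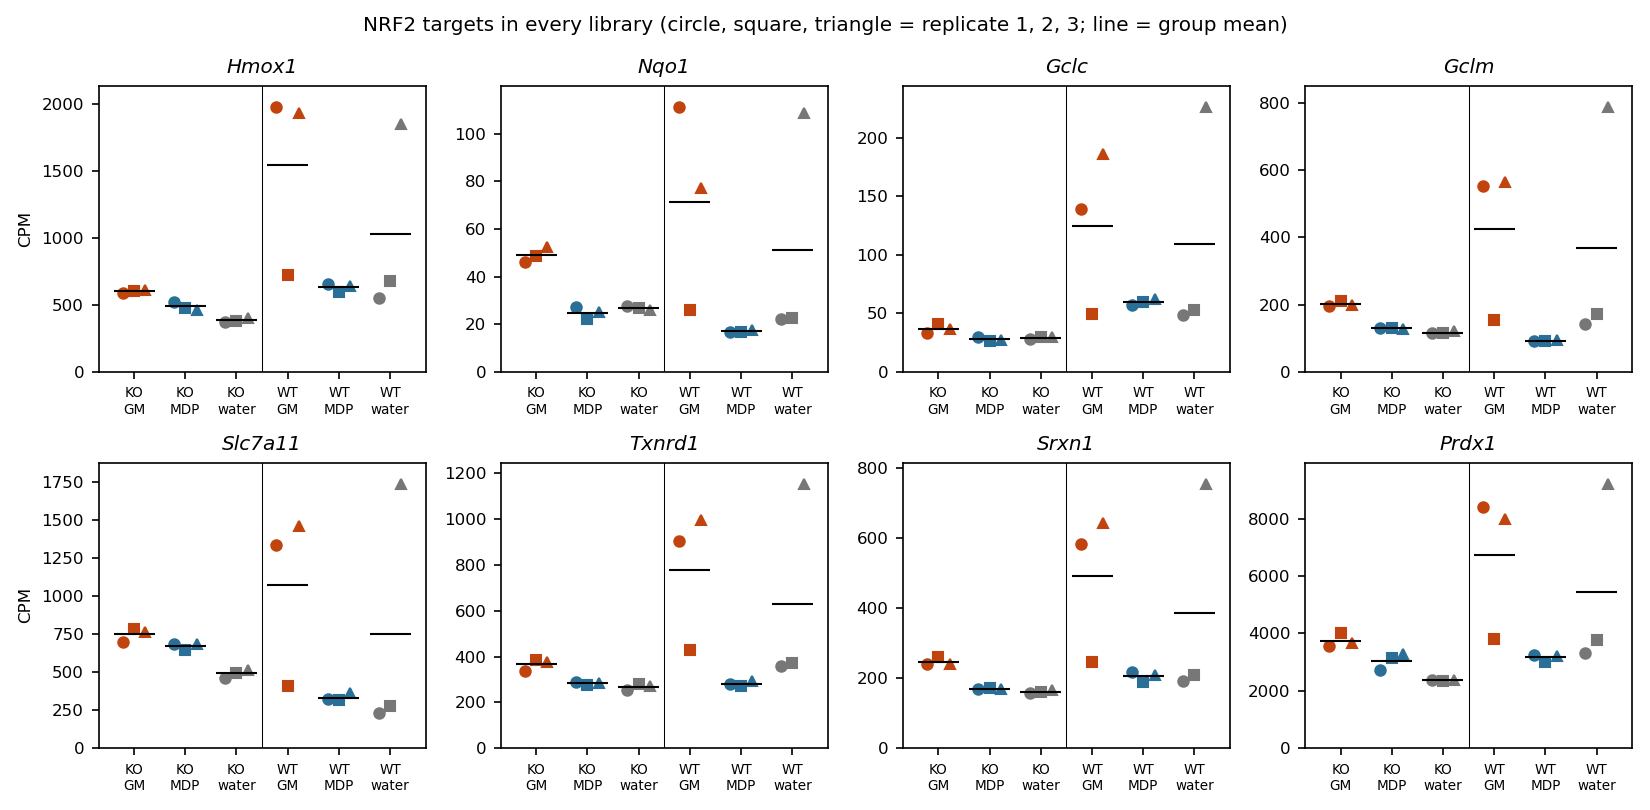
CPM of NRF2 targets in every library on linear axes from 0; symbols give the replicate number and lines the group means. Knockout libraries cluster tightly, with GM above water (Nqo1 45.9 to 52.6 CPM, against 26.1 to 27.4 CPM), while wild-type GM and wild-type water are spread.

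The knockout GM result depended on which libraries set the spread. A fit of all 18 libraries, in which the wild-type groups share 1 estimate of spread with the knockout groups, called 0 of the 34 members and 3 of all genes (0.0194%). DESeq2 on the same 6 libraries called 25 members higher and 3.44% of all genes, and leaving out any 1 of them left 24 or 25. Osgin1 was lost without any 1 library other than GM replicate 1, and Me1 without any 1 other than GM replicate 3. Gpx4 was gained without water replicate 1. Other genes moved in the same comparison: all 6 proliferation markers fell, summing to 499, 473 and 464 CPM with GM and 638, 610.5 and 594 CPM with water. Of the 10 stromal markers 5 were tested and 2, Col1a2 and Thy1, fell; the list summed to 12.8, 10.2 and 8.65 CPM with GM and 21.5, 16.7 and 17.8 CPM with water. None of 6 tested neutrophil markers of 8 passed, with sums of 249, 221 and 284 CPM with GM and 77.3, 145 and 110.1 CPM with water. Those sums came mainly from S100a8 and S100a9, while Ly6g and Elane were at or near 0 in every library. The part of these lists in the antioxidant result was not tested.

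MDP also raised part of the programme in the knockout, while the share of members that fell was near that of all genes. Of 34 members 16 were higher and 4 lower with MDP than with water, and over all genes 10.4% were higher and 10.5% lower. The median log2 fold change was 0.12 over the members and 0.00 over all genes. The 3 MDP libraries lay wholly above the water libraries for 17 members, against 16.1% of genes, and wholly below for 6, against 18.4%. This comparison shares its 3 water libraries with the GM comparison, so the pair are not independent. The fit of all 18 libraries called 3 members here, 2 higher and 1 lower (2.76% of all genes). Leaving out MDP replicate 2 left 2 lower, losing Bach1 and Sod1, and single libraries also decided the calls on Me1, Gclm and Mafg.

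Prdx5 and the mitochondrial Sod2 rose most with MDP in the knockout. Prdx5 had 649, 732 and 723 CPM with MDP and 414, 367 and 403 CPM with water (log2 fold change 0.84 ± 0.05, adjusted p = 5.24e-14). Sod2 had 438, 438 and 449 CPM with MDP and 226, 268 and 267 CPM with water (0.81 ± 0.05, adjusted p = 3.83e-13). Prdx6, a cytosolic enzyme, had 155, 157 and 166 CPM with MDP and 106, 106 and 105 CPM with water (0.60 ± 0.05, adjusted p = 8.58e-12). In all 3 genes the groups were separate. Slc7a11 had 686, 648 and 684 CPM with MDP against 462, 496 and 517 CPM with water (0.46 ± 0.05, adjusted p = 1.62e-09), and Hmox1 had 521, 479.7 and 463 CPM against 375, 382 and 403 CPM (0.34 ± 0.05, adjusted p = 9.22e-07). Me1 rose by 0.44, Abcc1 by 0.40, Prdx1 by 0.37, Sqstm1 by 0.30 and Gsr by 0.26. The other 6 that rose, by 0.16 to 0.24, were Gclm, Esd, Mafg, Pgd, Txn1 and Gpx4; Gclm had 132, 129 and 127 CPM with MDP.

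Several classical targets that rose with GM did not pass with MDP in the same cells. Nqo1 had 27.0, 22.1 and 25.0 CPM with MDP and 27.4, 26.8 and 26.1 CPM with water, a log2 difference of -0.11 with a 95% interval of -0.29 to 0.06. Gclc had 29.9, 26.5 and 27.5 CPM with MDP (interval -0.22 to 0.11), Srxn1 had 169.8, 171 and 169 CPM (-0.01 to 0.18) and Txnrd1 had 290.03, 278 and 284 CPM (-0.01 to 0.18). A p that misses the threshold does not show that these were unaffected, and the responses to GM and MDP were not tested against each other. Ephx1 fell most, to 23.3, 19.6 and 20.5 CPM with MDP, against 40.5, 34.1 and 31.2 CPM with water (-0.73 ± 0.09, adjusted p = 2.28e-07). Gstm1 fell by 0.26, Bach1 by 0.18 and Sod1 by 0.17 on the log2 scale. Bach1, the repressor, had 126, 115 and 123 CPM with MDP, all below its water libraries, and Nfe2l2 had 397, 402 and 416 CPM (adjusted p = 0.905). Keap1 had 66.5, 62.3 and 66.9 CPM with MDP (adjusted p = 0.0818), and Mafg 111, 104 and 101 CPM (adjusted p = 0.0111). Proliferation markers fell here as well, all 6, to 375, 386 and 400.3 CPM in sum with MDP, and their part in these changes was not tested. Of 6 neutrophil markers tested 1 rose (Camp), with list sums of 162, 252 and 238 CPM, 1 of 6 stromal markers fell (Thy1), and 3 of 4 dendritic cell markers rose.

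**Figure D4:**
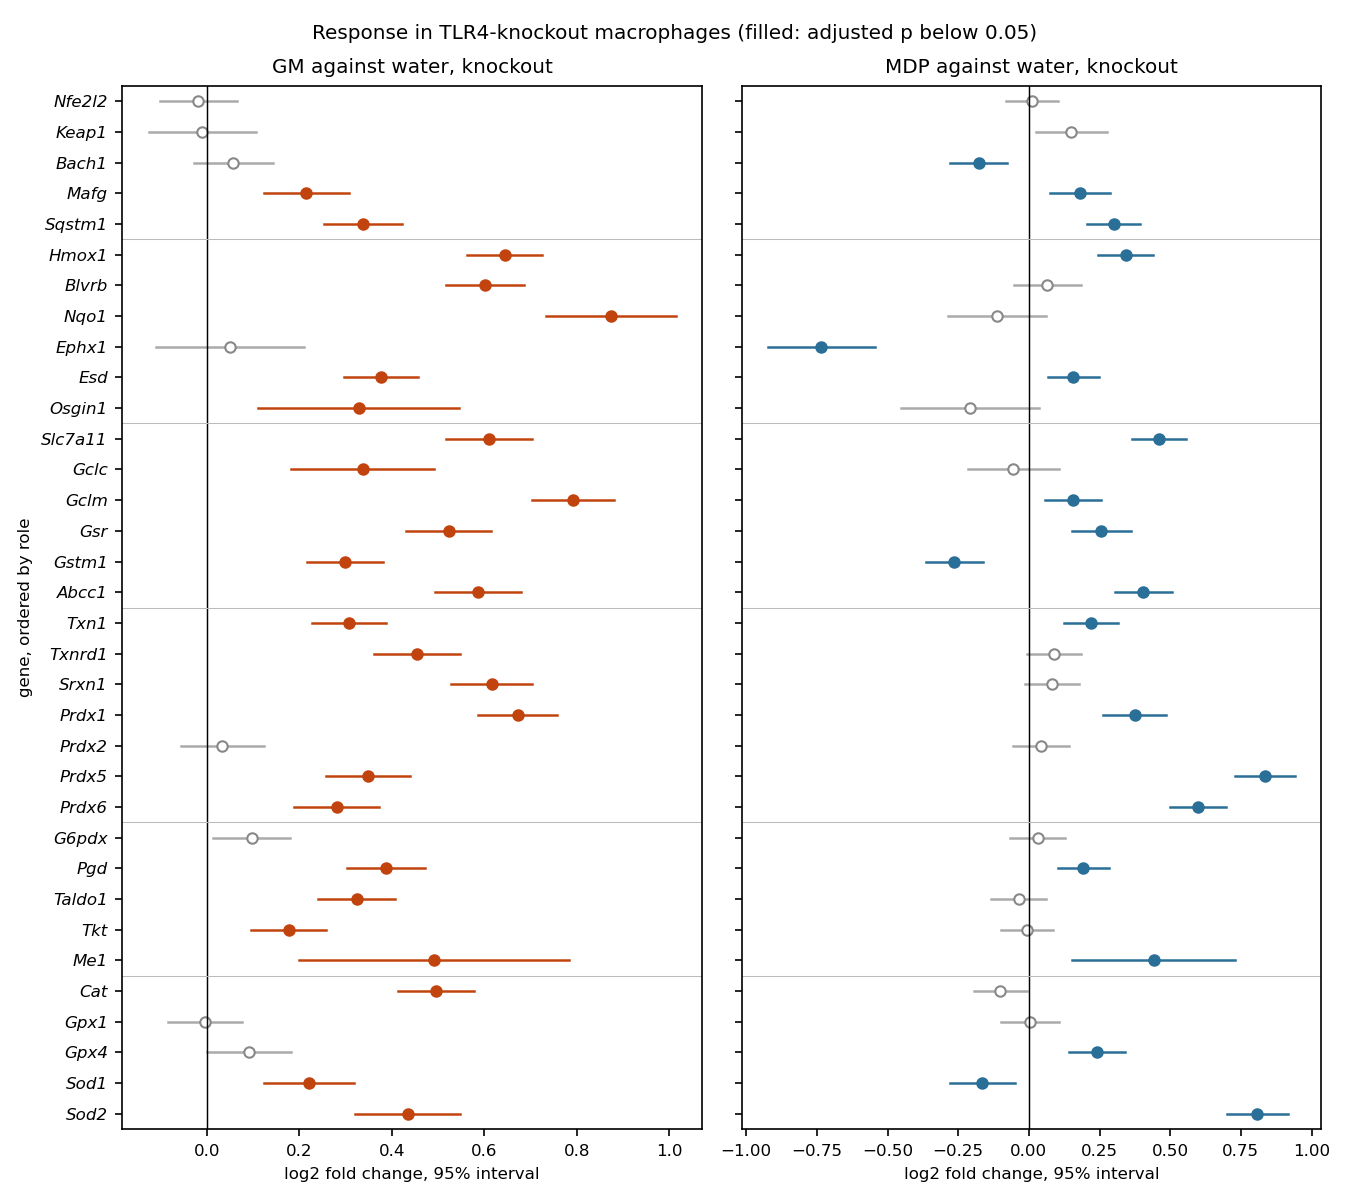
Log2 fold change with its 95% interval for each of the 34 genes, GM against water (left) and MDP against water (right) in TLR4-knockout macrophages; filled points passed the adjusted p threshold of 0.05. With GM 26 points are filled and all lie above 0; with MDP 16 lie above 0 and 4 below.

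In wild-type macrophages GM gave no member past the threshold. By edgeR's quasi-likelihood test, 0 of 34 were higher and 0 lower, and 4 had an unadjusted p under 0.05, beside 913 of 14297 genes. DESeq2 called 1, Sod2, while it called 2.39% of all genes higher. Over all genes edgeR called 0.65% higher and 0% lower. The median log2 fold change was 0.18 over the members and -0.04 over all genes. Sod2 had 318, 237 and 329.6 CPM with GM and 99.9, 104 and 140.4 CPM with water, every GM library above every water library, with a log2 fold change of 1.36 ± 0.20 and an adjusted p of 0.0509. Without water replicate 3 it was 1.54 ± 0.18 (adjusted p = 0.0175), and it was then 1 of 34 members called, while 1.59% of all genes were higher.

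For the classical targets the wild-type groups overlapped, each with high and low libraries. Nqo1 had 111, 26.0 and 77.2 CPM with GM and 22.3, 22.7 and 109 CPM with water. Gclm had 554, 154 and 565 CPM with GM and 142, 172 and 787 CPM with water. Slc7a11 had 1338, 413 and 1463 CPM with GM and 233, 280.4 and 1739 CPM with water. In each gene GM replicate 2 was closer to water replicates 1 and 2 than to the other GM libraries, and water replicate 3 was near or above GM replicates 1 and 3. Hmox1 had 1976, 721 and 1934 CPM with GM and 553, 675 and 1852 CPM with water. Srxn1 had 584, 247 and 643 CPM with GM and 193, 208 and 756 CPM with water, and Txnrd1 had 904, 428 and 997 CPM with GM and 359, 370.1 and 1155 CPM with water. Gclc showed the same split, with 139, 49.0 and 186 CPM with GM and 48.2, 52.9 and 226 CPM with water. Other genes went both ways in GM replicate 2 and water replicate 3. Sod2 was at 237 and 140.4 CPM in these 2 libraries, and the 4 dendritic cell markers summed to 647 and 68.3 CPM, each on the side of its label. Proliferation markers summed to 208 CPM in GM replicate 2, beside 251 and 214 CPM in water replicates 1 and 2. In water replicate 3 they summed to 75.0 CPM, beside 119 and 89.6 CPM in GM replicates 1 and 3. Stromal markers summed to 51.5 CPM in water replicate 3, beside 51.9 and 52.2 CPM in GM replicates 1 and 3, and to 95.3 CPM in GM replicate 2. Whether wild-type libraries were exchanged was not tested, and none was moved to another group.

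Log2 fold changes of these genes with all wild-type libraries were 0.48 ± 0.78 for Nqo1, 0.21 ± 0.79 for Gclm, 0.52 ± 0.87 for Slc7a11 and 0.59 ± 0.58 for Hmox1. Without water replicate 3 they were 1.67 ± 0.58, 1.45 ± 0.57, 2.07 ± 0.56 and 1.34 ± 0.46, and the median over the 34 members was 0.87. None of these 4 passed the test with or without that library. The GM group itself spanned 26.0 to 111 CPM for Nqo1.

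Keap1 and Nfe2l2 varied little between wild-type water libraries, where the highest was 1.05 and 1.04 times the lowest, against 4.86 times for Nqo1. Keap1 had 70.5, 73.9 and 70.6 CPM with GM and 58.3, 61.1 and 59.0 CPM with water, with no overlap (0.27 ± 0.09, adjusted p = 0.558). Nfe2l2 had 268, 384 and 292 CPM with GM and 326, 327 and 314 CPM with water, where GM replicate 2, low in the targets, was the high one. Bach1 had 145, 102 and 164 CPM with GM and 112, 115 and 211 CPM with water, and Mafg had 167, 101 and 172 CPM with GM and 89.4, 93.2 and 188 CPM with water. Both followed the split of the targets, with replicate 2 the lowest of the GM libraries and replicate 3 the highest of the water libraries. Keap1 and Sod2 were the only 2 members whose GM libraries lay wholly above water, against 7.27% of genes, and Ephx1 was the only 1 wholly below, against 4.78%.

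The wild-type MDP libraries were tight, with a median coefficient of variation of 3.82% over members, against 53.8% in wild-type water. With MDP 1 of 34 members was higher and 2 were lower than with water, while 5.13% of all genes were higher and 4.02% lower. Ephx1 had 51.8, 54.9 and 57.0 CPM with MDP and 123, 121 and 109 CPM with water (-1.10 ± 0.09, adjusted p = 0.00253). Me1 had 3.83, 4.11 and 3.95 CPM with MDP and 9.74, 12.8 and 32.9 CPM with water (-2.22 ± 0.47, adjusted p = 0.0371). Nfe2l2 had 409.9, 403 and 428 CPM with MDP and 326, 327 and 314 CPM with water (0.36 ± 0.08, adjusted p = 0.0471). Groups did not overlap in these 3 genes. In all, 4 members lay wholly above water, against 19.5% of genes, and 12 wholly below, against 19%. Leaving out water replicate 1 lost the call on Nfe2l2, and leaving out water replicate 2 or any 1 MDP library left Ephx1 alone. This comparison shares its water libraries with the wild-type GM comparison.

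Without wild-type water replicate 3, the same comparison called 12 members higher and 8 lower, while 18.1% of all genes were higher and 19.5% lower. The median of the members then moved to 0.01, against -0.63 with that library. Gclm had 91.4, 92.1 and 93.4 CPM with MDP and a log2 fold change of -0.76 ± 0.07 without replicate 3 (adjusted p = 1.85e-07), against -1.99 ± 0.66 with it. Nqo1 had 16.9, 16.8 and 17.4 CPM with MDP (-0.40 ± 0.10, adjusted p = 0.00471, without replicate 3 and -1.58 ± 0.64 with it), and Txnrd1 had 279.9, 273 and 295 CPM (-0.37 ± 0.05, adjusted p = 2.91e-05, without replicate 3 and -1.15 ± 0.46 with it). These 3 targets thus lay below water replicates 1 and 2 as well. Slc7a11 had 323, 314 and 363 CPM with MDP and changed sign, 0.38 ± 0.08 without replicate 3 and -1.17 ± 0.76 with it; the second did not pass. Hmox1 with 658, 596 and 641 CPM and Srxn1 with 217, 191 and 209.9 CPM did not pass either way. Gclc had 57.2, 59.6 and 62.2 CPM with MDP and changed sign too, 0.24 ± 0.07 without replicate 3 (adjusted p = 0.0163) and -0.87 ± 0.59 with it.

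Of the other genes called without replicate 3, Osgin1, Sqstm1 and Prdx5 were highest over water, by 0.94, 0.69 and 0.67, and Gpx4, Gpx1, Nfe2l2, Txn1, Sod2, Keap1 and Gsr followed. With all libraries the direction was the opposite for 6 of the 12 called higher: Slc7a11, Gclc, Osgin1 (-0.09), Sqstm1 (-0.10), Txn1 (-0.09) and Gsr (-0.93). Sod2 was at 0.30 without replicate 3 and at 0.13 with it. Me1, Ephx1, Cat, Abcc1 and Taldo1 were lower, with Me1 at -1.50. Keap1 had 72.1, 69.2 and 76.7 CPM with MDP, Bach1 124, 122 and 129 CPM and Mafg 95.8, 92.4 and 92.9 CPM. Other lists moved beside these results. Of 9 tested stromal markers 6 fell, with sums of 22.9, 15.9 and 22.1 CPM with MDP and 276, 241 and 51.5 CPM with water. Of 4 tested neutrophil markers 2 rose, with sums of 79.4, 60.5 and 57.0 CPM with MDP and 7.06, 8.10 and 50.4 CPM with water, and 2 of 4 dendritic cell markers rose. Their part in the antioxidant values was not tested.

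**Figure D5:**
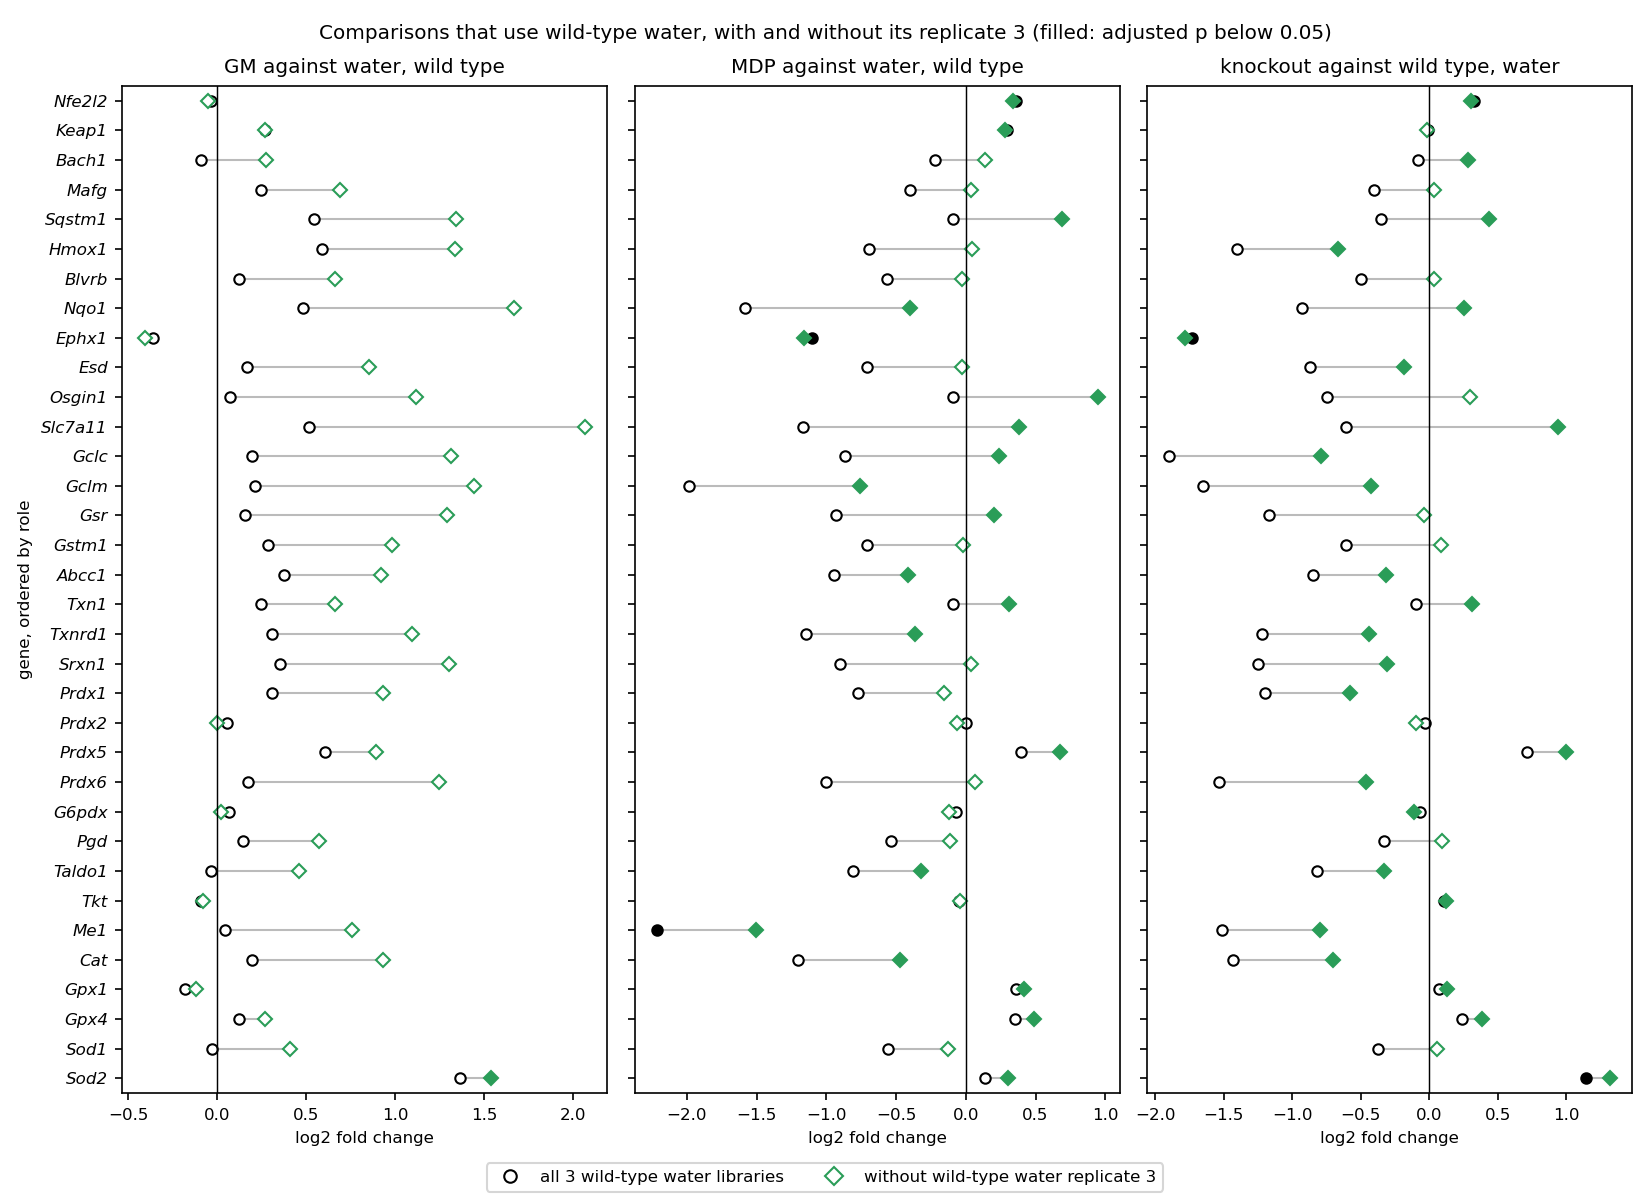
Log2 fold change of the 34 genes in the 3 comparisons that use wild-type water, with all 3 water libraries (circles) and without replicate 3 (diamonds); filled symbols passed the adjusted p threshold of 0.05. For Gclm with MDP the point moved to -0.76 without replicate 3, against -1.99 with it, whereas Nfe2l2, Keap1 and Ephx1 moved by at most 0.05 in each panel.

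In water, knockout and wild-type macrophages differed in few members at the spread of the wild-type group. Of 34 members 2 were higher and 1 lower in the knockout, while 6.98% of all genes were higher and 8.8% lower. Sod2 had 226, 268 and 267 CPM in knockout water and 99.9, 104 and 140.4 CPM in wild-type water (1.15 ± 0.16, adjusted p = 0.00808). Nfe2l2 had 393, 399 and 419.5 CPM in knockout water and 326, 327 and 314 CPM in wild-type water (0.33 ± 0.08, adjusted p = 0.0398). Ephx1 had 40.5, 34.1 and 31.2 CPM in knockout water and 123, 121 and 109 CPM in wild-type water (-1.73 ± 0.12, adjusted p = 0.0011). Over all members 4 lay wholly above wild type, against 22.8% of genes, and 13 wholly below, against 23.1%. In Sod2, Nfe2l2 and Ephx1 the groups were separate, also without wild-type replicate 3, where the values were 1.32, 0.31 and -1.78. Leaving out 1 library at a time left Ephx1 called each time. Nfe2l2 was lost without any 1 library other than wild-type replicate 3, Sod2 was lost without knockout replicate 2 or 3, and Me1 was gained without wild-type replicate 1.

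Without wild-type water replicate 3 the knockout was higher in 11 members and lower in 14, while 23.3% of all genes were higher and 26% lower. For 5 of the 11 called higher the direction turned with that library in the fit, where none of them passed. Slc7a11 had 462, 496 and 517 CPM in knockout water and 233, 280.4 and 1739 CPM in wild-type water, a log2 fold change of 0.94 ± 0.07 without replicate 3 (adjusted p = 4.64e-07) and of -0.61 ± 0.76 with it. Nqo1 was at 0.25 without replicate 3 and at -0.93 with it, Sqstm1 at 0.44 and -0.35, Bach1 at 0.28 and -0.08, and Txn1 at 0.31 and -0.10. Others kept their direction: Prdx5 was higher by 1.00 ± 0.05 without replicate 3 (adjusted p = 1.9e-16) and by 0.72 ± 0.21 with it, and Gpx4 by 0.39 and 0.24. All 14 called lower were below 0 with all libraries as well. Gclc had 27.8, 30.1 and 29.7 CPM in knockout water and a log2 fold change of -0.79 ± 0.08 without replicate 3 (adjusted p = 4.68e-11) and of -1.90 ± 0.62 with it. Me1 was at -0.80 without replicate 3 and -1.52 with it, Cat at -0.70 and -1.43, and Hmox1 at -0.66 and -1.41. Of the other classical targets Gclm was at -0.42 and -1.65, Txnrd1 at -0.44 and -1.22 and Srxn1 at -0.31 and -1.25. Of these lower genes Ephx1 alone passed with all libraries. Of 9 tested stromal markers 8 were lower in the knockout, with sums of 21.5, 16.7 and 17.8 CPM in knockout water and 276, 241 and 51.5 CPM in wild-type water. Of 6 proliferation markers 5 were higher, with sums of 638, 610.5 and 594 CPM in knockout water and 251, 214 and 75.0 CPM in wild-type water, and 2 of 5 tested neutrophil markers were higher. The part of these lists was not tested, and genotype cannot be told apart from differences between the cultures.

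Whether the responses differed between genotypes was tested as an interaction over 12 libraries. In these fits wild-type and knockout groups share 1 estimate of spread, as in the fit of all 18 libraries. The median coefficient of variation over members was 53.8% in wild-type water and 3.04% in knockout water. Standard errors, intervals and calls of the interaction may therefore be too wide or too narrow, which was not tested. For GM, 0 of 34 members differed by edgeR, and 4 had an unadjusted p under 0.05, beside 1183 of 15117 genes. By edgeR 0.0132% of all genes had a higher and 0.939% a lower response in the knockout. DESeq2 called 1 member lower, beside 1.89% of genes. Sod2 came closest, with a log2 difference, knockout minus wild type, of -0.94 ± 0.21 (adjusted p = 0.086). Without wild-type water replicate 3 this was -1.08 ± 0.17 (adjusted p = 0.00524), beside 2.55% of genes lower. Leaving out wild-type GM replicate 2 also called Sod2. For the other targets a difference in GM response was not shown. For Nqo1 the 95% interval of the difference ran from -1.49 to 2.26, and for Gclm from -1.32 to 2.46.

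For MDP 3 members responded differently between the genotypes, while 3.45% of all genes had a higher and 4.79% a lower response in the knockout. Me1 rose with MDP in the knockout and fell in wild type, a difference of 2.65 ± 0.51 (adjusted p = 0.00978). Sod2 had a higher response in the knockout by 0.67 ± 0.17 (adjusted p = 0.0305), and Nfe2l2 a lower one, with a difference of -0.35 ± 0.08 (adjusted p = 0.0266). Without wild-type water replicate 3 the test called 12 members higher and 8 lower, against 12.2% and 14.1% of all genes. The difference in response was 1.94 for Me1, 0.91 for Gclm and 0.81 for Abcc1 without that library, against 2.65, 2.14 and 1.35 with it, and -1.16 for Osgin1, against -0.12 with it. Of the 8 called lower, 4 (Bach1, Gclc, Gstm1 and Sqstm1) were above 0 with all libraries. Leaving out wild-type water replicate 1 gave 5 higher and replicate 2 gave 4 higher. Leaving out any 1 wild-type MDP or knockout library left Me1 as the only member called.

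Other genes of the pathway, 66 in a list of further glutathione, thioredoxin, iron, metallothionein and transcription factor genes, were counted in the same way. With GM in the knockout 18 of 60 tested rose and 2 fell, beside the 4.15% and 4.46% of all genes, and the median log2 fold change was 0.11. The fit of all 18 libraries called 0 of them and DESeq2 19. Ggt5, a gamma-glutamyl transferase, had 13.2, 12.7 and 14.3 CPM with GM and 6.22, 5.42 and 4.28 CPM with water (1.33 ± 0.14, adjusted p = 1.93e-08). Gsta3, a glutathione transferase, had 19.6, 20.3 and 23.3 CPM with GM and 7.97, 11.6 and 9.31 CPM with water (1.13 ± 0.12). The metallothioneins, which bind zinc and copper, rose as a pair: Mt2 by 0.93 and Mt1 by 0.79. Slc40a1, the iron exporter ferroportin, rose by 0.59. The 2 that fell were Gpx3, a secreted glutathione peroxidase (-0.47), and Prdx4, the peroxiredoxin of the endoplasmic reticulum (-0.23), the second named after its value was seen.

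With MDP in the knockout 16 of 60 rose and 7 fell, beside 10.4% and 10.5% of all genes. Slc40a1 fell to 35.8, 33.3 and 32.0 CPM with MDP, against 76.9, 76.3 and 69.9 CPM with water (-1.14 ± 0.07, adjusted p = 1.1e-15). Its values with GM were 111, 109 and 114 CPM, above the same water libraries. Gpx3 was at -0.75, Gstt1 at 0.94, and Gsta3 and Glrx, a glutaredoxin, at 0.58 and 0.58. In wild type 0 of 62 passed with GM by edgeR, and DESeq2 also called 0. By edgeR 5 of them had an unadjusted p under 0.05, beside 913 of 14297 genes. With MDP in wild type 1 of 61 rose (Nfe2, 1.15) and 6 fell, beside 5.13% and 4.02% of all genes, led by Gpx8 (-4.90), Ggt5 (-1.16), Gstm2 (-0.70) and Txnip (-0.69). Without water replicate 3 these counts were 9 and 19, beside the 18.1% and 19.5% of all genes, and without any 1 MDP library they were 0 and 0. Gpx8, an enzyme of the endoplasmic reticulum, had 0.164, 0 and 0.0647 CPM with MDP and 4.09, 2.62 and 0.664 CPM with water, the same order of libraries as the stromal markers. At so few reads its fitted change depends on the prior count.

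Between genotypes in water 2 of 61 were higher and 10 lower in the knockout, beside 6.98% and 8.8% of all genes. Without wild-type replicate 3 these counts were 19 and 22, beside 23.3% and 26% of all genes. Without any 1 knockout library 1 was higher and 1 lower. Sod3, the extracellular superoxide dismutase, had 0.266, 0.276 and 0.683 CPM in knockout water and 10.6, 10.4 and 2.71 CPM in wild-type water (-4.30 ± 0.69, adjusted p = 0.0119), near the limit of detection in the knockout. Gpx8 was at -4.09, Slc40a1 at -1.92 and Sesn2, a sestrin, at -0.91. Nfe2, a relative of NRF2 known from blood cell precursors, was higher by 2.47. The response to GM differed between genotypes in 0 of 63 by edgeR and in 1 by DESeq2. By edgeR 3 of them had an unadjusted p under 0.05, beside 1183 of 15117 genes. Without wild-type GM replicate 1 the response to GM differed in 2. The response to MDP was higher in the knockout for 8 of 62 and lower for 2, beside 3.45% and 4.79% of all genes. Without wild-type water replicate 3 it was higher for 20 and lower for 7, beside 12.2% and 14.1%. Without any 1 wild-type MDP or knockout library 2 or 3 were higher. Gstt1 (2.65), Mt2 (2.46), Ggt5 (1.498), Abcc4 (1.44) and Gpx3 (-0.99) led these. The NADPH oxidase, which makes superoxide in phagocytes, has 6 subunit genes in the list. In the knockout GM raised 2 of 6 (Cybb 0.21, Ncf4 0.24), beside 4.15% of all genes, and MDP 2 of 6 (Ncf1 0.35, Cybb 0.26), beside 10.4%. In wild type MDP raised 1 of 6 (Ncf4 0.70), beside 5.13%. Ncf4 was also the 1 higher in knockout water (0.79), beside 6.98%, and the 1 with a lower MDP response in the knockout (-0.60), beside 4.79%. These counts are too few to read against those shares, and the oxidase genes were named after their values were seen.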

How the data were processed

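The deposited values used are raw read counts per gene in a table of 18 libraries, from directional poly(A) libraries per the labels' protocols. Per the submitters' processing notes the tools were HISAT2 2.0.5 and featureCounts 1.5.0-p3 and the build GRCm39; how they were set, whether strand was used and which annotation release was counted are not given in the sources used here. A deposited table of FPKM was not used. Here, each comparison of 2 groups was fitted on its own 6 libraries (12 for an interaction) with edgeR 4.0.16 in R 4.3.3: filterByExpr with a minimum count of 10, TMM scaling, the quasi-likelihood test, and Benjamini-Hochberg adjustment over all genes tested, with a threshold of 0.05. Log2 fold changes are given ± SE. Levels are CPM on 1 TMM scale over the 18 libraries, per kilobase where genes are compared. The test was checked on simulated counts in which all groups shared the same spread for each gene. That check does not cover groups of unlike spread, such as the wild-type and knockout groups here. Alternatives were RLE scaling, no filter, a fit of all 18 libraries, DESeq2 1.42.0, a replicate block and each library left out; the counts of other pathway genes were also run under these, an addition made after seeing the data.

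The 34 members and the other lists were chosen with earlier results of these data known. In every comparison the regulators Nfe2l2, Keap1, Bach1 and Mafg and the targets Hmox1, Nqo1, Gclc, Gclm, Slc7a11, Txnrd1 and Srxn1 were named; beyond these, up to 10 members past the threshold with the largest change in each direction, and up to 5 other pathway genes. Promoter sequences are RefSeq's (GRCm38.p6, 29 of 34 members matched; Abcc1, Gclc, Gsr, Hmox1 and Prdx6 had none). Stretches reaching past the gene start were not printed. Samples were grouped by genotype and treatment labels, and no library was a duplicate of another. For counts, the depth of a library limits the precision of the rarest members, of which Me1 had at least 3.83 CPM. Genes whose spans overlap another gene may share its reads, since the use of strand is not given: besides Prdx2, overlapping genes held 56% of the count of G6pdx, 44.6% of Mafg, 43.4% of Sod1 and 21.7% of Gpx1.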

Additional observations from a re-analysis of the deposited data

Results flagged for a closer look

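In 3 of 34 members the response to MDP differed between knockout and wild-type macrophages by the interaction test of edgeR, 2 higher and 1 lower. That test uses 1 estimate of spread for both genotypes, although the wild-type water libraries varied more. Over all genes 3.45% had a higher and 4.79% a lower response in the knockout, and the members are too few to read against those shares. The difference, knockout minus wild type on the log2 scale, was 2.65 for Me1, 0.67 for Sod2 and -0.35 for Nfe2l2. Me1 had 8.93, 8.66 and 8.56 CPM with MDP and 6.32, 6.62 and 6.40 CPM with water in the knockout, and 3.83, 4.11 and 3.95 CPM with MDP and 9.74, 12.8 and 32.9 CPM with water in wild type. Nfe2l2 had 397, 402 and 416 CPM with MDP in the knockout and 409.9, 403 and 428 CPM with MDP in wild type. With water it had 393, 399 and 419.5 CPM in the knockout and 326, 327 and 314 CPM in wild type. Without any 1 wild-type MDP or knockout library, Me1 alone passed.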

How the results depend on the processing

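No member called with all libraries changed direction in any alternative. Of members called without wild-type water replicate 3, 6 with MDP in wild type, 5 between genotypes and 4 in the MDP interaction had the opposite direction with all libraries. In the knockout the GM result held (24 to 25 members higher and 833 to 1228 genes in all with 1 library left out, 25 with DESeq2) except in the fit of all 18 libraries, with 0 members and 3 genes. The MDP result there gave 13 to 16 higher, 2 to 4 lower and 2359 to 2946 genes with 1 library left out, and 2 higher, 1 lower and 427 genes in the fit of all 18. With 1 library left out, GM in wild type gave 0 to 1 members higher and 0 to 298 genes; MDP gave 0 to 12 higher, 1 to 8 lower and 186 to 5552 genes; knockout against wild type gave 0 to 11 higher, 1 to 14 lower and 353 to 7264 genes. The GM interaction gave 0 to 1 members lower and 71 to 515 genes, and the MDP interaction 1 to 12 higher, 0 to 8 lower and 646 to 4063 genes. The fit of all 18 libraries gave 3 members higher and 729 genes for GM in wild type. For MDP in wild type it gave 4 higher, 8 lower and 3810 genes. For knockout against wild type it called 16 members, 13 of them lower, and 5110 genes. It gave 1 lower and 287 genes for the GM interaction. For the MDP interaction it called 2 members, 0 of them lower. DESeq2 gave 1 higher and 363 genes for GM in wild type, and 3 higher, 5 lower and 2443 genes for MDP in wild type. It called 12 members, 9 of them lower, and 3532 genes for knockout against wild type. The GM interaction had 1 lower and 316 genes by DESeq2, and the MDP interaction 4 higher, 2 lower and 1981 genes. With RLE scaling GM in wild type gave 1 higher. With no filter GM in wild type gave 1 higher and the GM interaction 1 lower. MDP in wild type then had 2 members called, 0 of them higher. Knockout against wild type had 2 called, 1 of them higher, and the MDP interaction 2 called, 0 of them lower. The cause was not tested. These member counts, and those with the replicate block below, show only how the calls moved with the processing. They are not set against the share of all genes in each direction and say nothing about the members beside other genes.

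Replicate numbers are shared between groups, and the labels tie no number to a shared animal, batch or day. The deviations of same-numbered libraries correlated at -0.19, 0.48 and 0.47 for replicates 1, 2 and 3 of GM and water in wild type. In the other comparisons they correlated at no more than 0.06. In wild type the best-correlated water library was replicate 3 for GM replicates 1 and 3, and replicate 1 for GM replicate 2. As not every pair deviated together, the numbers were not taken to pair the libraries. With the number as a replicate block, GM in wild type gave 1 member higher and 145 genes. MDP in wild type gave 0 higher, 1 lower and 359 genes. Knockout against wild type then had 2 members called, 1 of them higher, and 829 genes. The MDP interaction had 2 called, 0 of them lower. In the knockout GM gave 25 higher and MDP 16 higher and 4 lower.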

Other observations

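Dendritic cell markers, outside the antioxidant genes, were high in some groups. The 4 markers summed to 515, 647 and 532 CPM in wild-type GM, 758, 840.03 and 807 CPM in wild-type MDP and 197, 175 and 68.3 CPM in wild-type water, with Ccr7 giving most of the sum. In the knockout the sums were 158, 174 and 200.01 CPM with GM, 313, 416 and 388 CPM with MDP and 123, 139 and 147 CPM with water.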
